A study of Mus musculus with 4 samples.

Results

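The genes described here make, import, store and export cholesterol. They were taken by symbol from the deposited gene lists, and all 34 symbols were found, each on 1 row, among 32285 genes. By role they comprised 17 enzymes of cholesterol synthesis, 5 genes of sterol sensing, 5 genes of uptake, transport and storage, and 7 genes of efflux and the liver X receptor (LXR) pathway.

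Cells make cholesterol from acetyl-CoA through mevalonate, isoprenoid diphosphates and squalene. When membranes are poor in sterol, SCAP escorts the SREBP transcription factors, encoded by Srebf1 and Srebf2, to the Golgi, where they are cut free and switch on the synthesis enzymes, and when sterol is plentiful the INSIG proteins hold them in the endoplasmic reticulum. Oxysterols, oxidised forms of cholesterol, activate the LXRs, encoded by Nr1h3 and Nr1h2, which switch on export pumps such as Abca1 and Abcg1 and, in the liver and gut, Abcg5 and Abcg8. Hepatocytes make, take up and secrete cholesterol for the whole body, and liver macrophages take up lipoproteins and cell debris and export the cholesterol these contain.

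The data were 4 single-cell RNA libraries of mouse liver, 1 for each combination of diet and week. All came from male C57BL/6J mice that were 8 weeks old at the start. Chow mice ate regular chow for 12 or 24 weeks. MASH mice (metabolic dysfunction-associated steatohepatitis) were kept for the same times on the FAT regimen, named for fibrosis and tumour, which joined a Western diet (1.25% cholesterol, 41% sucrose and 21.1% fat by the labels), drinking water with 23.1 g fructose and 18.9 g glucose per litre, and weekly low-dose carbon tetrachloride, a liver toxin. The diet itself therefore supplied cholesterol, and diet, sugar water and toxin cannot be told apart. Liver pieces were held overnight on ice, digested, and enriched for non-parenchymal cells on Percoll before 5′ library preparation.

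The filters and the removal of doublets left 71071 cells, 16438 and 15148 from chow and MASH at 12 weeks and 21652 and 17833 from chow and MASH at 24 weeks. Depth differed with diet: the median cell held 3065 and 3206 unique molecular identifiers (UMIs, 1 per captured molecule) in the MASH libraries and 1986 and 2077 in the chow libraries. Although the suspension was labelled non-parenchymal, hepatocyte-like cells numbered 1353, 423, 1960 and 619 in the order chow and MASH at 12 weeks, chow and MASH at 24 weeks, which is the order used for every set of 4 values below. Classes of cells were named from marker genes and are written "-like". Levels are CPM, a gene's UMIs scaled by all UMIs of that class and library, and the values in brackets after a ratio are its 95% interval. With 1 library per group there was no replicate, so no p-value was computed, and intervals cover counting error between 2 libraries only. A gene was called higher or lower when MASH and chow differed at least 2-fold with an interval that left out 1, and it was tested where both libraries together held at least 20 of its UMIs. A class with under 50 cells in a library was given no value there, which removed the 24-week comparisons of macrophage-like (29 chow cells), stellate- or fibroblast-like (38) and erythroid-like cells (39).

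Promoter sequence is shown for 4 members whose windows hold a sterol regulatory element (Hmgcs1), CCAAT boxes (Hmgcs1 and Idi1) or a DR4 element (Abca1 and Srebf1), which are kinds of site that the SREBPs, their partner NF-Y and the LXRs can bind. The stretches are from RefSeq on GRCm38.p6, each upstream of a RefSeq start and read along the gene's strand. They lie at chr13:119690161-119690350 (Hmgcs1, plus strand), chr13:8885506-8885605 (Idi1, plus strand), chr4:53159896-53160015 (Abca1, minus strand) and chr11:60210552-60210691 (Srebf1, minus strand). The Srebf1 stretch lies well inside the gene's annotated span (chr11:60199089-60222581), upstream of an internal start. Capitals mark a sterol regulatory element (TCACCCCAC) and CCAAT boxes, here as ATTGG from the other strand, in Hmgcs1 and Idi1, and a DR4 element, the kind of repeat that LXR binds, in Abca1 and Srebf1.
Hmgcs1: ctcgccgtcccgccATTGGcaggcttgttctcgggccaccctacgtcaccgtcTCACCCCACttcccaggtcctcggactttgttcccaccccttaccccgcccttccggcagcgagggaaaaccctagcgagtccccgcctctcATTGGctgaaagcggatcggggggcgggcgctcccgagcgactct
Idi1: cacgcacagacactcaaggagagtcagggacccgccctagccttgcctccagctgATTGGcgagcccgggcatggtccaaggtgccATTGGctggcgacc
Abca1: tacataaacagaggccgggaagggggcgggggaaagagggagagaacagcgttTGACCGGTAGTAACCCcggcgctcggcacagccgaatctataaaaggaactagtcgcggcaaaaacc
Srebf1: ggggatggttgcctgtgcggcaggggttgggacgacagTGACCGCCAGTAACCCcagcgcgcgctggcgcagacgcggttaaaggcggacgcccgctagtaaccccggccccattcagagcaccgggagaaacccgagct

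Motifs were searched on both strands in windows from 250 bases before to 50 after the start, which 28 of the 34 members had. The sterol regulatory element was spelled TCACNCCAC and occurred in 1.24% of all 32851 windows and, among 14 synthesis enzymes with a window, in Hmgcs1 alone. CCAAT, the box bound by NF-Y, a partner of the SREBPs, occurred in 37.4% of all windows and in 13 of the 14 synthesis enzymes. It also occurred in 4 of 5 sterol sensing genes, 3 of 3 of uptake, transport and storage, and 3 of 6 of efflux and LXR. A member counted when any of its windows matched, whereas the shares of all windows are per window. The DR4 element was searched as 2 copies of NGGTNA with 4 bases between them, occurred in 0.718% of all windows, and was found in Abca1 and Srebf1 among the members. A match describes the letters in a window, and binding was not measured.

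In each library the members divided among the cell classes. Hmgcs1, which makes the HMG-CoA that enters the mevalonate pathway, was highest in hepatocyte-like cells in all 4 libraries, at 284, 147, 265 and 131 CPM. The same held for the synthesis enzymes Acat2, Idi1 and Fdps, the sterol carrier Stard4 and the bile canaliculus sterol pump Abcg8. Plasmacytoid dendritic-like cells were highest in all 4 libraries for the enzymes Mvd and Dhcr7, for Srebf2 and its escort Scap, and for Npc1, which moves cholesterol out of lysosomes. Cholangiocyte-like (bile duct) cells were highest for the sterol reductase Tm7sf2 and for Srebf1, and endothelial-like cells for Mylip, a ubiquitin ligase that marks lipoprotein receptors for breakdown. Lipa was highest in endothelial-like cells in both chow libraries and in macrophage-like cells in both MASH libraries, but in 12-week chow the intervals of these classes overlapped (112 to 136 and 81.9 to 159 CPM). Nr1h3 was highest in hepatocyte-like cells in both chow libraries and in macrophage-like cells in both MASH libraries, again with overlapping intervals in 12-week chow (60.1 to 86.1 and 34.9 to 90.4 CPM). Soat1 and Npc2 were highest in monocyte-like cells in 3 libraries and in macrophage-like cells in MASH at 24 weeks. Macrophage-like cells had no value in 24-week chow. Neighbours in these orders were at times close: the Fdps intervals of hepatocyte-like cells (281 to 320 CPM) and plasmacytoid dendritic-like cells (259 to 303 CPM) overlapped in 24-week chow, as did those of Mvd in plasmacytoid and conventional dendritic-like cells in both MASH libraries.

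Summed over the enzymes, synthesis was highest in hepatocyte-like cells, at 1799, 815, 1332 and 882 CPM, and next in plasmacytoid dendritic-like cells, at 1334, 723, 1094 and 709 CPM, except that in MASH at 24 weeks cholangiocyte-like cells, at 698 CPM, lay close to the latter. Efflux and LXR genes had another order. Their sum was highest in endothelial-like cells in all 4 libraries, at 557, 807, 595 and 682 CPM. It was lowest in plasmacytoid dendritic-like cells in both chow libraries, at 99.4 and 106 CPM. The ligase Mylip alone made up 286, 487, 311 and 337 CPM of the endothelial-like sums. In macrophage-like cells it made up 75.4 of 531 and 51.5 of 456 CPM in MASH at 12 and 24 weeks. Without Mylip, macrophage-like cells would thus lie above endothelial-like cells in both MASH libraries, so the order there rested on Mylip. Across classes the 2 sums ran opposite, with Spearman's rho of -0.63, -0.60, -0.75 and -0.59 over 14, 14, 11 and 14 classes. The classes of a library share its preparation and differ in depth, so these values are a description.

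**Figure D1:**
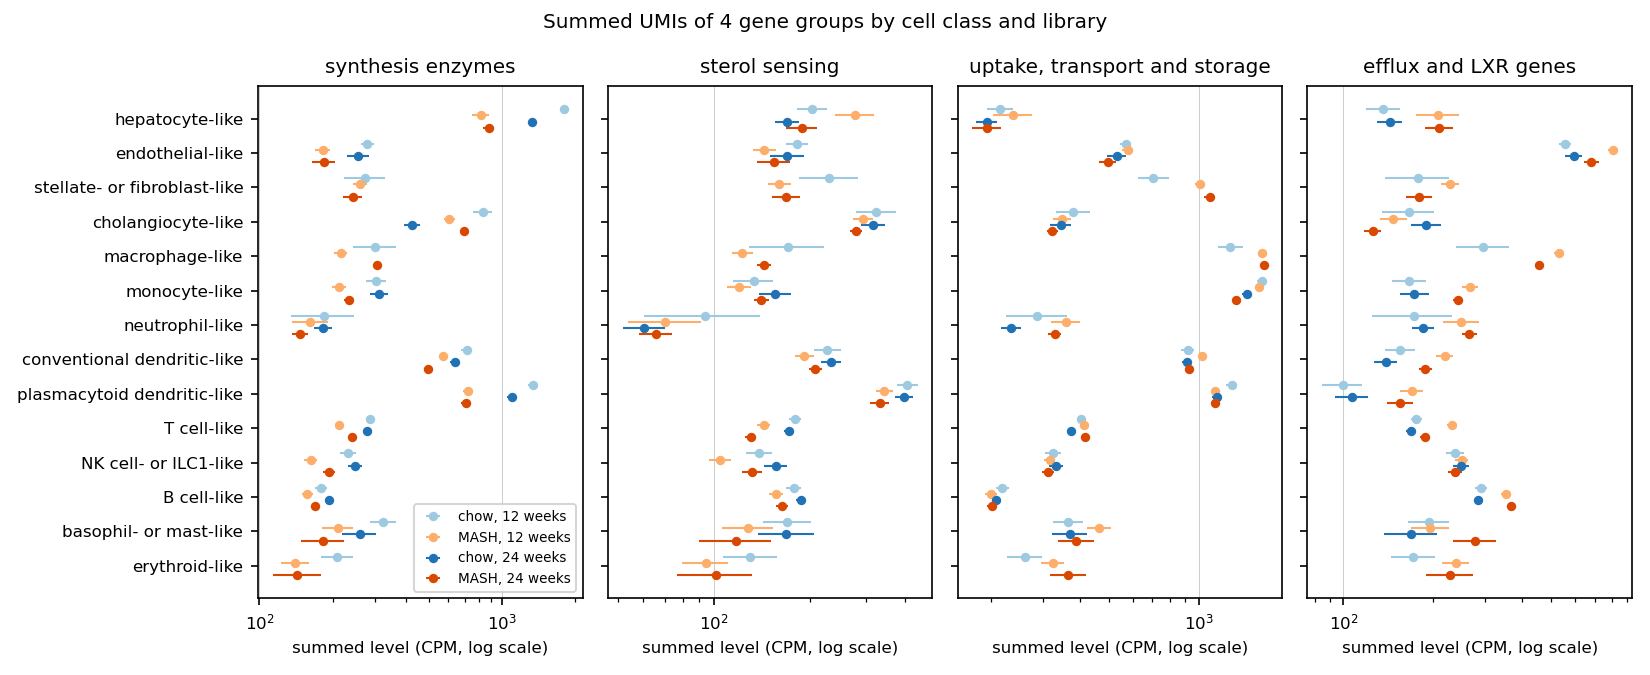
Summed level of each role's genes (x axis, CPM on a log scale) in every cell class (y axis), with 1 point per library and bars for the 95% counting interval. In the synthesis panel the orange and red MASH points lie left of the blue chow points of the same week in nearly all classes, and in the efflux panel they mostly lie right, with endothelial-like cells highest in all 4 libraries.

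The main comparison asked whether synthesis and efflux differed between MASH and chow within a cell class. The summed synthesis level of MASH was below chow in 14 of 14 classes at 12 weeks (13 of 14 with TMM scaling, where stellate- or fibroblast-like cells had 1.03), with the interval below 1 in 12, and in 10 of 11 classes at 24 weeks, with the interval below 1 in 10. The median ratio over classes was 0.714 at 12 and 0.774 at 24 weeks. The summed efflux and LXR level was above chow in 13 of 14 classes at 12 weeks, with the interval above 1 in 10, and in 9 of 11 at 24 weeks, with the interval above 1 in 9. Median ratios were 1.40 and 1.36. Cholangiocyte-like cells were an exception in both weeks for efflux and at 24 weeks for synthesis, and NK cell- or ILC1-like cells had an efflux ratio of 0.952 (0.876 to 1.04) at 24 weeks.

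**Figure D2:**
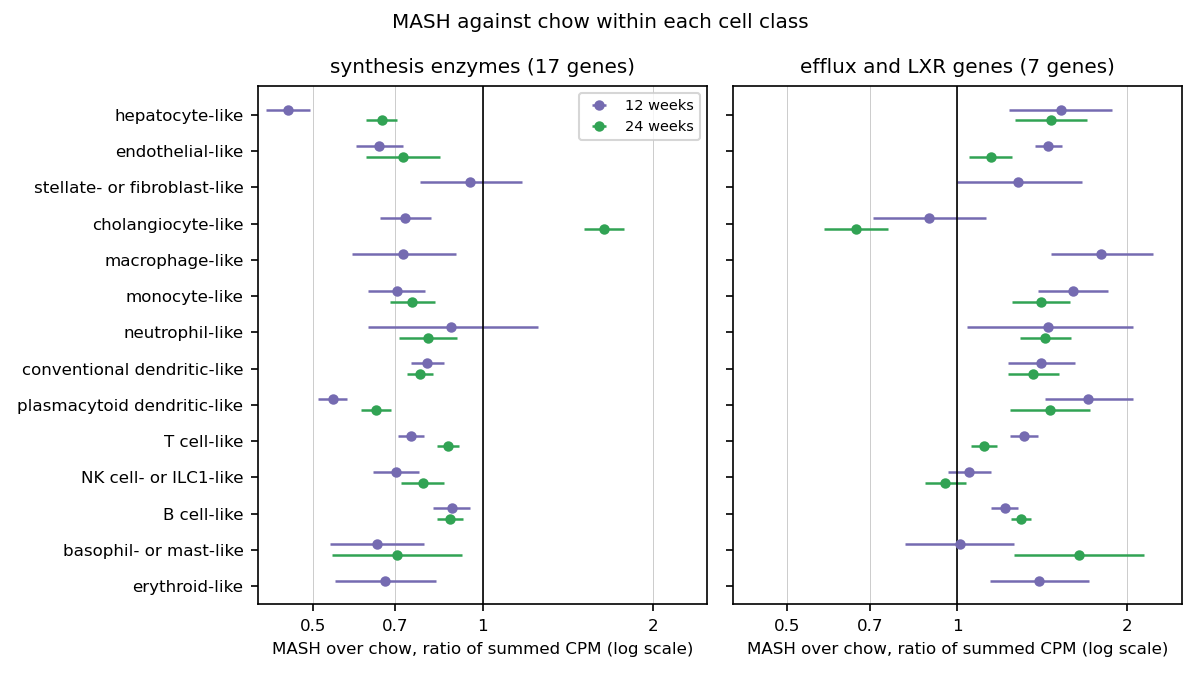
Ratio of MASH to chow (x axis, log scale) of the summed synthesis enzymes (left) and the summed efflux and LXR genes (right) in each cell class (y axis), with points for 12 and 24 weeks and bars for the 95% counting interval. Synthesis ratios lie below 1 except in cholangiocyte-like cells at 24 weeks (1.64), and efflux ratios lie above 1 in 13 of 14 classes at 12 weeks and 9 of 11 at 24 weeks.

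Several measurements bear on these sums. Free RNA was gauged from hepatocyte markers, whose level in other classes without cholangiocyte-like cells was 0.370% to 3.21% of that in hepatocyte-like cells. At such shares, synthesis RNA carried over from hepatocytes would come to between 3.02 and 57.8 CPM in a class, against measured synthesis levels from 140.5 to 1334 CPM in those classes. In some classes this exceeded the difference between the diets. Neutrophil-like cells at 12 weeks had equivalents of 37.3 CPM in chow and 5.25 CPM in MASH, within measured levels of 184 and 162 CPM, and stellate- or fibroblast-like cells had 35.1 and 4.55 CPM within 273 and 259 CPM. With these equivalents taken off, a calculation added after the data were seen, the MASH to chow ratio was 1.07 in both classes and also 1.07 in cholangiocyte-like cells, so that synthesis was below chow in 10 of 13 classes other than hepatocyte-like cells at 12 weeks and in 9 of 10 at 24 weeks. Erythroid-like cells, with 57.8 CPM in chow and 7.96 CPM in MASH, went from a ratio of 0.672 to 0.876. For efflux, taking off RNA at the share of macrophage markers left 11 of 13 classes above chow at 12 weeks, and basophil- or mast-like cells went from 1.01 to 0.986. A check chosen after the data were seen used single clusters with at least 50 cells in both libraries. Synthesis was below chow in 22 of 23 clusters at 12 weeks and 20 of 21 at 24 weeks, with the interval below 1 in 17 and 16. Efflux was above chow in 23 of 23 and 20 of 21, with the interval above 1 in 14 and 18. Hepatocyte-, macrophage-, monocyte-, plasmacytoid dendritic-, stellate- or fibroblast-, basophil- or mast- and erythroid-like cells each formed a single cluster. For them the check only repeated the class result. No cholangiocyte-like cluster had enough cells for that check.

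Cells also carried hashtag antibodies, whose meaning the labels do not give, so hashtags were not treated as animals. Split by hashtag at 12 weeks, the synthesis range in MASH lay wholly below that in chow in 6 of 11 classes and overlapped it in 5, and the efflux range lay wholly above in 6 and overlapped in 5. At 24 weeks the synthesis ranges overlapped in 8 of 9 classes, the exception being plasmacytoid dendritic-like cells, and the efflux ranges overlapped in 9 of 9.

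Gene by gene, and over all classes, 32 of 187 tested comparisons of a synthesis enzyme in a class were called lower and 1 higher at 12 weeks, and 16 of 158 lower and 5 higher at 24 weeks. Of the efflux and LXR genes, 10 of 62 were called higher and 0 lower at 12 weeks, and 13 of 53 higher and 2 lower at 24 weeks. In sterol sensing, and in uptake, transport and storage, at most 4 of 66 tested comparisons were called in a direction. Of these 90 calls, 38 held under every planned change of filter, scaling, clustering or hashtag subset that gave a ratio, and 52 fell short under at least 1. The called genes are given class by class below, each beside the share of all tested genes called the same way.

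**Figure D3:**
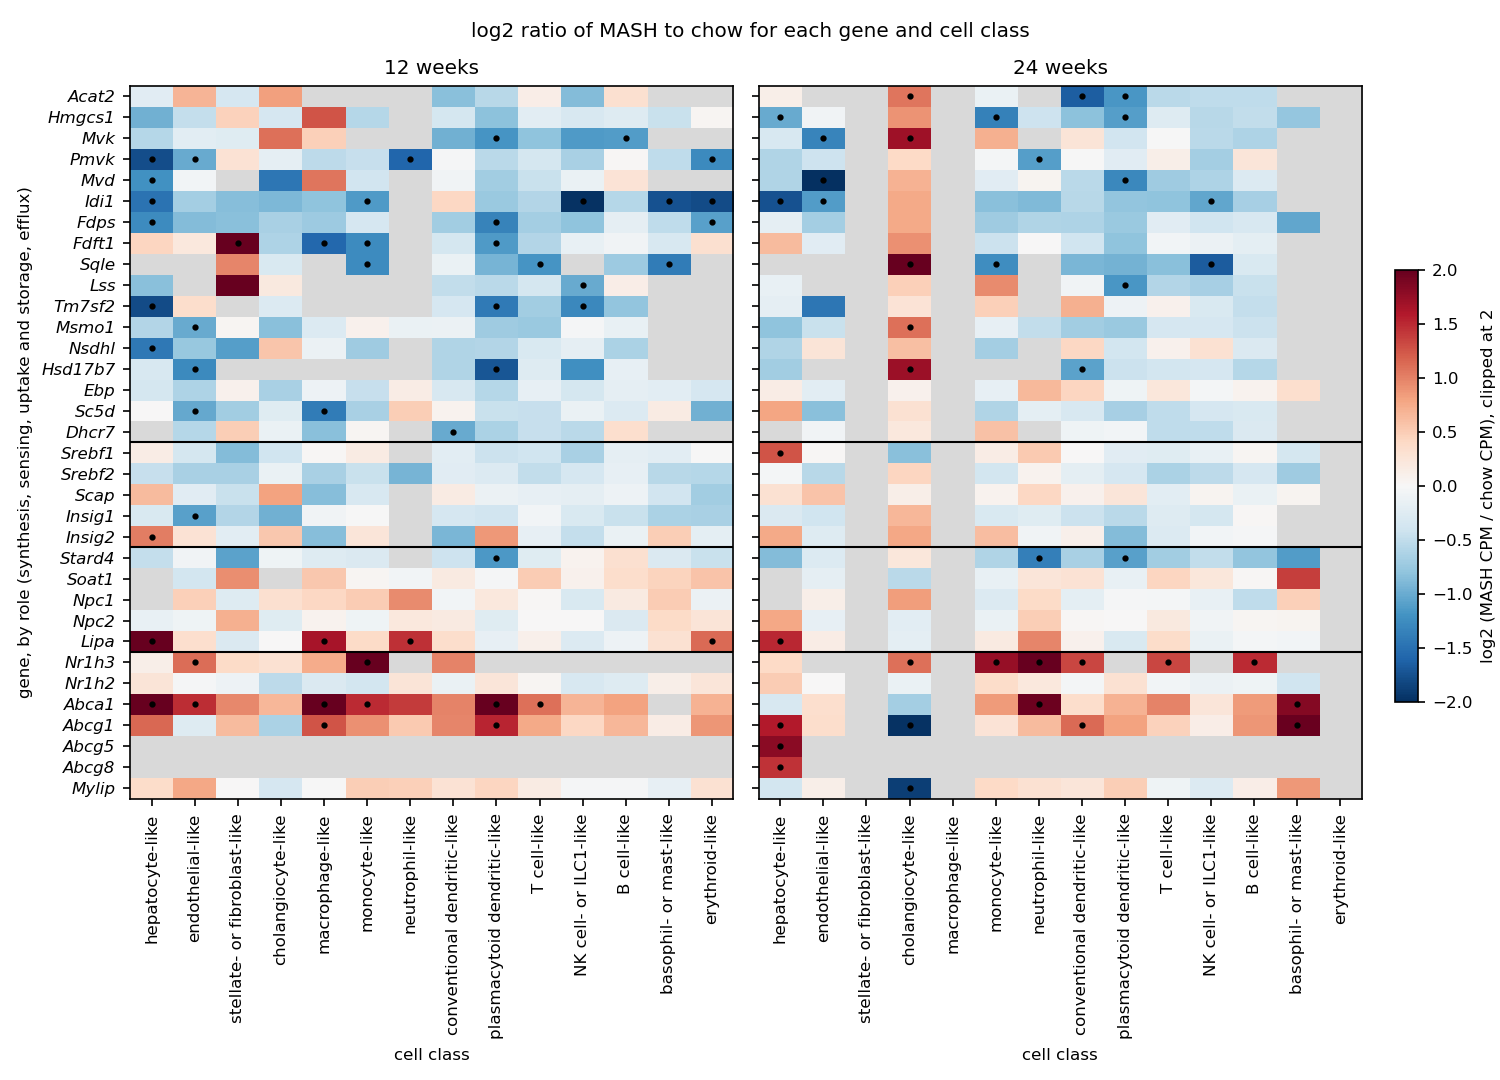
Log2 ratio of MASH to chow (colour, clipped at 2 in size) for each of the 34 genes (rows, grouped by role) in each cell class (columns) at 12 weeks (left) and 24 weeks (right), with a dot where the difference was at least 2-fold with an interval off 1 and grey where it was not tested. Blue prevails among the synthesis enzymes and red in the lines of Abca1, Abcg1 and Nr1h3, except that cholangiocyte-like cells at 24 weeks show red enzymes and blue Abca1, Abcg1 and Mylip.

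Hepatocyte-like cells had the lowest synthesis ratio at 12 weeks, 0.453 (0.414 to 0.495), and 0.662 (0.623 to 0.704) at 24 weeks. Idi1, which interconverts the isoprenoid building blocks, stood at 325, 117, 356 and 107 CPM. Both MASH values were below both chow values, and the ratios of 0.361 (0.283 to 0.454) and 0.300 (0.254 to 0.353) were called lower at both weeks. Split by hashtag, the MASH range lay wholly below the chow range at both weeks, at 81.2 to 136 against 312 to 377 CPM and at 83.9 to 193 against 257 to 459 CPM. Hmgcs1, listed above, had ratios of 0.516 (0.414 to 0.639), just short of 2-fold, and 0.495 (0.423 to 0.577). Fdps, which makes farnesyl diphosphate, stood at 544, 226, 299.9 and 266 CPM, so its chow libraries differed from each other by more than diet did at 24 weeks. It had a 12-week ratio of 0.416 (0.350 to 0.492) and a 24-week ratio of 0.887 (0.789 to 0.997). The kinase Pmvk had a like course, with 0.292 (0.223 to 0.378) and then 0.656 (0.539 to 0.794).

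At 12 weeks 6 of 15 tested synthesis enzymes were called lower in hepatocyte-like cells (Pmvk, Mvd, Idi1, Fdps, Tm7sf2 and Nsdhl), where 3.21% of all tested genes were, and 0 were called higher. At 24 weeks 2 of 15 (Hmgcs1 and Idi1) were called lower, where 2.56% of all tested genes were. Their median log2 ratio was -0.84 against 0.01 over all tested genes at 12 weeks, and -0.31 against 0.19 at 24 weeks. The cells' own markers, from which the class was named, lay close together across libraries, with all 10 detected and a summed level of 22304 to 27588 CPM. They do not show how intact the cells were. The cells were shallow, with medians of 838, 965, 1011 and 1427 UMIs, each below the median of its library. A single hashtag was found on 423 of 1353, 201 of 423, 631 of 1960 and 290 of 619 of them.

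The sterol sensors and exporters of hepatocyte-like cells did not all follow the enzymes. Insig2, an SREBP anchor, was at 83.9, 170.3, 32.4 and 55.0 CPM, with ratios of 2.03 (1.58 to 2.60), called higher, and 1.70 (1.26 to 2.29). Insig1, its SREBP-responsive relative, had ratios of 0.812 (0.550 to 1.18) and 0.815 (0.659 to 1.00), neither called. Srebf1 was at 16.3, 18.1, 10.5 and 25.0 CPM, and its ratio of 2.39 (1.46 to 3.95) at 24 weeks was called higher. The Srebf1 stretch printed above belongs to an internal start, and counts per gene do not show which start was used. The summed efflux level was 136, 208, 143 and 209.9 CPM, so both MASH libraries lay above both chow libraries. Abcg5 and Abcg8, which pair to pump sterol into bile, rested on few UMIs: 6, 10, 17 and 32 for Abcg5 and 2, 10, 25 and 37 for Abcg8. They were tested only at 24 weeks, with ratios of 3.48 (1.88 to 6.69) and 2.74 (1.60 to 4.74). The genes overlap on opposite strands, and whether counting used strand is not stated in any source used, so their reads may be shared.

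Abcg1 was also called higher at 24 weeks, at 2.99 (1.43 to 6.49), but stood at 5.51 (1.35 to 48.5) against chow cells with hashtags 1 to 4 and at 1.02 (0.343 to 4.07) against those with hashtags 5 to 8. Abca1 was called higher at 12 weeks, at 4.79 (2.14 to 11.5), from 10 and 20 UMIs, and had a ratio of 0.804 (0.342 to 1.76) at 24 weeks. Among efflux and LXR genes 1 of 5 tested was called higher at 12 weeks and 3 of 7 at 24 weeks, where 4.91% and 7.56% of all tested genes were. Nr1h3 (LXR alpha), the receptor itself, had ratios of 1.08 (0.775 to 1.49) and 1.32 (1.07 to 1.63). Lipa, the lysosomal lipase that frees cholesterol from lipoprotein esters, was at 7.57, 61.4, 5.07 and 14.4 CPM and was called higher at both weeks, at 8.11 (4.29 to 16.4) and 2.84 (1.42 to 5.84). Split by hashtag, the 12-week MASH level of Lipa ran from 10.5 to 307 CPM, so the hashtags differed widely. The 11 macrophage markers summed to 16.9, 79.6, 3.38 and 92.5 CPM in hepatocyte-like cells, with 8, 9, 6 and 8 of them detected and Timd4 and Vsig4 at 0 in both MASH libraries. At that share of macrophage RNA, Lipa carried over from macrophages would amount to 2.73 and 2.97 CPM in the 2 MASH libraries and Abca1 to 1.18 and 0.923 CPM.

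Endothelial-like cells had synthesis ratios of 0.656 (0.596 to 0.722) and 0.722 (0.621 to 0.839), from summed levels of 278, 182, 255 and 184 CPM. Both MASH libraries were below both chow libraries. At 12 weeks 4 of 15 enzymes were called lower, where 2.36% of all tested genes were. They were Pmvk at 0.495 (0.339 to 0.718), the demethylase Msmo1 at 0.497 (0.344 to 0.711), the ketoreductase Hsd17b7 at 0.413 (0.182 to 0.883) and the desaturase Sc5d at 0.492 (0.319 to 0.748). At 24 weeks 3 of 13 were called lower (Mvk, Mvd and Idi1), where 2.85% of all tested genes were, from 25, 20 and 37 UMIs in both libraries together. Mvk, at 0.401, stood at 0.630 without doublet removal and 0.622 with the stricter cell filter. With the equivalent of hepatocyte RNA taken off, the 24-week ratio of Idi1 was 0.685 and the 12-week ratio of Pmvk 0.541. Insig1 stood at 29.5, 13.9, 24.6 and 18.7 CPM, with a ratio called lower at 12 weeks, 0.469 (0.334 to 0.654), and 0.760 (0.461 to 1.25) at 24 weeks. Srebf2, the main activator of the synthesis enzymes, had ratios of 0.635 (0.505 to 0.797) and 0.679 (0.461 to 0.997).

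On the export side of endothelial-like cells, Abca1, which loads cholesterol onto apolipoprotein A-I, was at 41.0, 114, 97.6 and 123 CPM. The 12-week chow library was thus the low one, and the other 3 lay close together. It had a 12-week ratio of 2.78 (2.30 to 3.37) and a 24-week ratio of 1.26 (1.02 to 1.57). Mylip stood at 286, 487, 311 and 337 CPM, so here the 12-week MASH library was the high one, and its ratios were 1.70 (1.58 to 1.84) and 1.08 (0.957 to 1.22). Abcg1, which exports cholesterol to HDL, changed sides, with 0.838 (0.745 to 0.942) and 1.28 (1.06 to 1.55). At 12 weeks 2 of 5 efflux and LXR genes were called higher (Abca1 and Nr1h3, the latter at 2.16 (1.07 to 4.63)), where 2.02% of all tested genes were, and at 24 weeks 0 of 4, where 2.21% were. The 11 macrophage markers summed to 148 CPM in chow and 317 CPM in MASH in these cells at 12 weeks, with 9 and 11 of them detected. Nr1h3 carried over from macrophages would come to 0.819 of 3.37 CPM in chow and 2.88 of 7.29 CPM in MASH, and taking it off left a ratio of 1.73, short of 2-fold, while Abca1 kept 2.70. The stricter cell filter gave Nr1h3 1.34 (0.664 to 2.84). The 24-week efflux sum differed between the 2 endothelial-like clusters, with a ratio of 0.983 (0.885 to 1.09) in cluster 11 and 1.62 (1.38 to 1.91) in cluster 22. A further cluster that joined endothelial with T cell markers (1689, 959, 792 and 263 cells) was not used.

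In monocyte-like cells the receptor gene Nr1h3 rested on 11, 148, 17 and 296 UMIs, or 7.67, 35.5, 9.18 and 30.8 CPM. Both MASH libraries were well above both chow libraries, and the ratios of 4.62 (2.51 to 9.47) and 3.36 (2.06 to 5.85) were called higher. At the level of macrophage markers in these cells, Nr1h3 carried over from macrophages would come to 2.51 and 2.61 CPM in MASH. Abca1 was at 10.5, 29.5, 11.3 and 20.4 CPM, with ratios of 2.82 (1.64 to 5.19) and 1.80 (1.15 to 2.98), and Abcg1 at 62.7, 118, 75.1 and 91.1 CPM, with 1.88 (1.495 to 2.37) and 1.21 (1.01 to 1.46). Of 5 tested efflux and LXR genes 2 were called higher at 12 weeks and 1 at 24 weeks, where 2.16% and 3.02% of all tested genes were.

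Synthesis in monocyte-like cells stood at 303, 213, 311 and 234 CPM, with ratios of 0.704 (0.627 to 0.792) and 0.751 (0.685 to 0.824). Sqle, the squalene epoxidase and a rate-controlling step of the sterol branch, was at 9.76, 4.07, 8.10 and 3.44 CPM and called lower at both weeks, at 0.417 (0.194 to 0.915) and 0.425 (0.224 to 0.841). Its intervals are wide because only 14, 17, 15 and 33 UMIs were counted. Idi1 (0.458, 0.262 to 0.813) and the squalene synthase Fdft1 (0.418, 0.232 to 0.761) were called lower at 12 weeks, and Hmgcs1 (0.392, 0.286 to 0.542) at 24 weeks. Idi1 stood at 0.510, short of 2-fold, with the equivalent of hepatocyte RNA taken off. This made 3 of 12 enzymes at 12 weeks and 2 of 16 at 24 weeks, where 1.44% and 1.57% of all tested genes were lower. The lysosomal sterol carrier Npc2 had ratios of 0.940 (0.893 to 0.991) and 0.912 (0.872 to 0.954), and the esterifying enzyme Soat1 1.03 (0.879 to 1.21) and 0.898 (0.767 to 1.06), so both differed little. Lipa stood at 87.8, 114.5, 72.4 and 81.9 CPM and Npc1 at 23.0, 32.8, 32.9 and 27.3 CPM, neither called.

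Macrophage-like cells could be compared at 12 weeks only, between 91 chow and 670 MASH cells of a single cluster. Abca1 was at 36.6 and 158 CPM, a ratio of 4.32 (2.46 to 8.39), and at 105 CPM in MASH at 24 weeks. Abcg1 was at 64.0 and 154 CPM (2.40, 1.56 to 3.90), and Lipa at 116 and 364 CPM (3.14, 2.28 to 4.46). These 3 were called higher. Among efflux and LXR genes that was 2 of 5, where 3.75% of all tested genes were. Nr1h3 had a ratio of 1.67 (1.06 to 2.79), and Npc2 one of 1.05 (0.944 to 1.18). Of 12 enzymes 2 were called lower, Fdft1 at 0.336 (0.169 to 0.740) and Sc5d at 0.380 (0.193 to 0.832), where 4.63% of all tested genes were, and each had 10 chow UMIs. Fdft1 overlaps Ctsb, a lysosomal protease gene, on the opposite strand, so reads of the pair may be shared. Hmgcs1 counted 3 and 113 UMIs, a ratio of 2.39 (0.796 to 11.7).

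The macrophage-like cells of the 12-week libraries differed in makeup. Lipid-associated macrophage markers summed to 686 CPM in chow and 3267 CPM in MASH, and Kupffer cell markers to 475 and 1267 CPM with Marco at 0 in chow. T cell markers summed to 1356 and 561 CPM, with all 8 detected in both libraries, and dissociation-stress genes to 9255 and 5439 CPM. The part of these differences in the Abca1, Abcg1 and Lipa values was not tested.

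**Figure D4:**
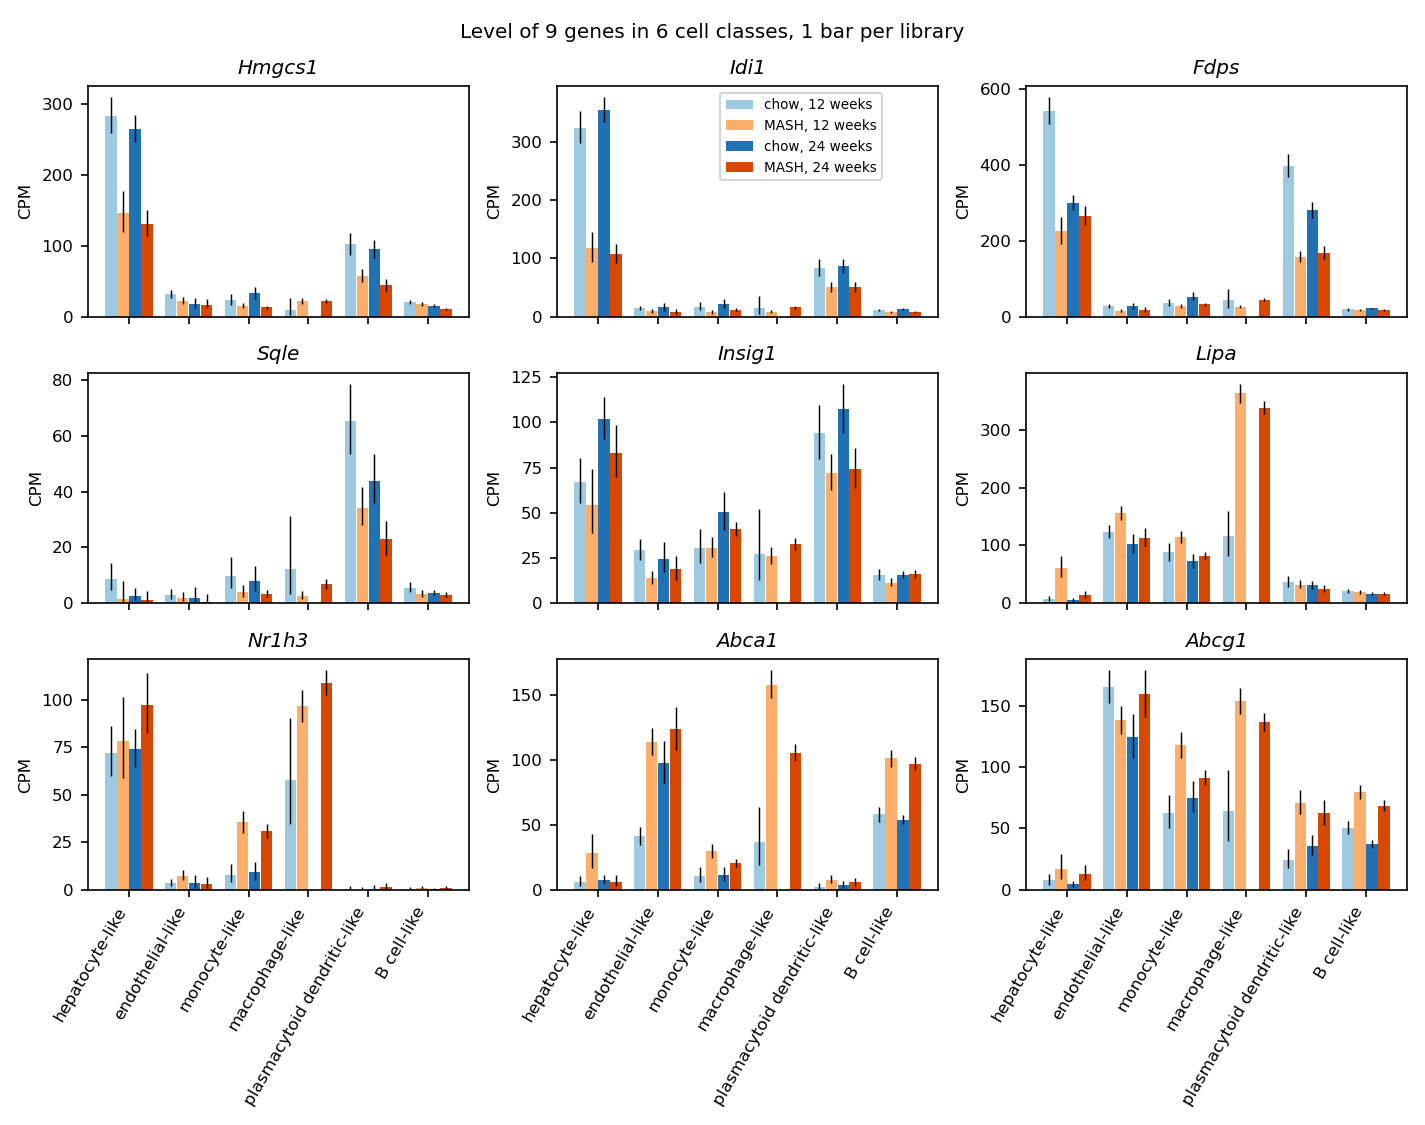
Level (y axis, CPM, linear from 0) of 9 genes in 6 cell classes, with 1 bar per library and lines for the 95% counting interval; macrophage-like cells have no bar for 24-week chow, which held 29 cells. Idi1 and Hmgcs1 show low MASH bars in hepatocyte-like cells, and Nr1h3 shows high MASH bars in monocyte-like cells, at 35.5 and 30.8 CPM against 7.67 and 9.18 CPM in chow.

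Plasmacytoid dendritic-like cells, the interferon-producing dendritic cells, were second to hepatocyte-like cells in how low their synthesis was at 12 weeks, with a ratio of 0.542 (0.511 to 0.575), and 0.648 (0.610 to 0.689) at 24 weeks. All 17 enzymes were tested and 0 had a ratio above 1 at either week. At 12 weeks 5 were called lower (Mvk, Fdps, Fdft1, Tm7sf2 and Hsd17b7), where 1.54% of all tested genes were, and at 24 weeks 4 (Acat2, Hmgcs1, Mvd and Lss), where 2.18% were. Fdps was at 397, 158, 281 and 168 CPM, with ratios of 0.398 (0.352 to 0.448) and 0.600 (0.529 to 0.679). Stard4, which carries sterol between membranes and is itself an SREBP target, was at 21.6, 9.74, 22.9 and 10.8 CPM and called lower at both weeks, at 0.452 (0.267 to 0.758) and 0.473 (0.286 to 0.766). Against 24-week chow cells with hashtags 1 to 4 alone, the 24-week ratio was 1.07 (0.454 to 2.91), and against those with hashtags 5 to 8 Lss stood at 0.780 (0.375 to 1.71).

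Abcg1 in plasmacytoid dendritic-like cells was at 24.6, 70.8, 35.8 and 62.5 CPM, with both MASH libraries above both chow libraries. Its ratio was 2.89 (2.06 to 4.14) at 12 weeks, called higher, and 1.75 (1.33 to 2.31) at 24 weeks. Abca1, from 3 and 23 UMIs, was also called higher at 12 weeks, at 4.30 (1.30 to 22.4), where 1.19% of all tested genes were higher. At 24 weeks 0 of 4 efflux and LXR genes were called, where 1.06% were. In conventional dendritic-like cells Abcg1 was at 49.6, 97.2, 33.4 and 73.2 CPM, with 1.96 (1.56 to 2.49) and 2.19 (1.80 to 2.70), the latter called higher together with Nr1h3, where 2.58% of all tested genes were. Nr1h3 in these cells rested on 9 and 55 UMIs at 24 weeks and stood at 1.80 to 6.18 under 7 alternatives of processing. At 12 weeks 0 of 5 efflux and LXR genes were called higher there, where 3.11% were. Their summed synthesis ratios were 0.798 (0.746 to 0.854) and 0.774 (0.735 to 0.815). Dhcr7, the last reductase of the Kandutsch-Russell route, was the 1 enzyme called lower at 12 weeks, at 0.499 (0.338 to 0.740), where 2.07% of all tested genes were, and Acat2 and Hsd17b7 were called lower at 24 weeks, where 1.98% were. Acat2 stood at 0.584 (0.221 to 1.95) against chow cells with hashtags 5 to 8.

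In B cell-like cells Abca1 was at 58.0, 101, 54.1 and 97.1 CPM and Abcg1 at 50.2, 79.3, 37.2 and 68.4 CPM. Both genes thus stood higher in both MASH libraries, with ratios of 1.74 (1.55 to 1.96) and 1.80 (1.65 to 1.96) for Abca1 and 1.58 (1.39 to 1.80) and 1.84 (1.66 to 2.04) for Abcg1, none past 2-fold. T cell-like cells had Abca1 at 12.8, 27.4, 8.36 and 16.6 CPM, with 2.14 (1.76 to 2.63), called higher where 4.84% of all tested genes were, and 1.99 (1.62 to 2.46), just short of 2-fold. Sqle was called lower in T cell-like cells at 12 weeks, at 0.440 (0.295 to 0.646), where 1.74% of all tested genes were, and Nr1h3 higher at 24 weeks, from 13 and 31 UMIs, where 7.2% were. Macrophage markers in T cell-like cells then summed to 8.83 CPM in chow and 54.4 CPM in MASH, with 7 and 10 of 11 detected. The part of macrophage RNA in this Nr1h3 call was not tested. In B cell-like cells the kinase Mvk was called lower at 12 weeks, at 0.463 (0.222 to 0.933), where 2.46% were, and Nr1h3 higher at 24 weeks, from 6 and 15 UMIs, where 1.8% were. Macrophage markers in these cells summed to 4.78 CPM in 24-week chow and 63.9 CPM in MASH, with 8 and 11 of 11 detected, and Nr1h3 carried over from macrophages would come to 0.660 of the 1.07 CPM in MASH. The part of such RNA in this call was not tested, since 24-week chow held too few macrophage-like cells to give its equivalent. Idi1 in NK cell- or ILC1-like cells was at 13.2, 3.36, 17.3 and 8.48 CPM and called lower at both weeks, at 0.255 (0.144 to 0.440) and 0.489 (0.330 to 0.720), where 1.98% and 2.69% of all tested genes were. Lss and Tm7sf2 were called lower with it at 12 weeks and Sqle at 24 weeks, and 0 efflux and LXR genes were called higher, where 1.72% and 2.43% of all tested genes were. Lss stood at 0.534 to 0.635 under 5 alternatives of processing, always short of 2-fold. Tm7sf2 stood at 0.266 to 0.628 under 4. At the level of hepatocyte markers in these cells, Idi1 carried over from hepatocytes would come to 2.47, 0.526, 3.13 and 0.455 CPM, and taking it off left ratios of 0.265 and 0.565, the latter short of 2-fold.

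In neutrophil-like cells Pmvk was called lower at both weeks, at 0.335 (0.129 to 0.879) and 0.464 (0.340 to 0.632), from 39.2, 13.1, 36.5 and 16.9 CPM, where 2.43% and 2.4% of all tested genes were lower. Without doublet removal the 12-week ratio was 0.553 (0.253 to 1.28), and against chow hashtags 1 to 4 the 24-week ratio was 0.780 (0.320 to 2.47). Abca1 was at 11.7, 30.99, 6.74 and 26.1 CPM, with 2.64 (0.808 to 13.6) and 3.88 (2.37 to 6.67), and Nr1h3 counted 2 and 30 UMIs at 24 weeks, a ratio of 9.69 (2.46 to 83.7). Both were called higher at 24 weeks, where 8.41% of all tested genes were, but without doublet removal neither reached 2-fold, at 1.92 (1.50 to 2.46) for Abca1 and 1.71 (1.04 to 2.87) for Nr1h3. Lipa was called higher at 12 weeks, at 2.74 (1.09 to 8.84), where 3.71% were. Macrophage markers in these cells summed to 54.8 CPM in chow and 430 CPM in MASH then, with 4 and 9 of 11 detected, and lipid-associated macrophage markers to 517 and 1112 CPM. Lipa carried over would come to 0.605 of 19.6 CPM in chow and 14.8 of 53.6 CPM in MASH, and taking it off left a ratio of 2.05. Stard4 was called lower at 24 weeks, at 0.388 (0.150 to 0.945) from 15 and 9 UMIs. Basophil- or mast-like cells had Abcg1 at 44.4, 49.3, 22.4 and 88.4 CPM, with 1.11 (0.698 to 1.78) and then 3.95 (2.10 to 7.97), called higher where 2.65% of all tested genes were. The chow value at 24 weeks was the lowest of the 4 and the MASH value the highest. Abca1 was called higher with it, from 5 and 16 UMIs. At 12 weeks Idi1 and Sqle were called lower in these cells, where 4.45% of all tested genes were, and Sqle stood at 0.581 (0.267 to 1.24) without doublet removal. Erythroid-like cells had Pmvk, Idi1 and Fdps called lower at 12 weeks, where 5.75% were, and Lipa higher, where 2.18% were. The 10 hepatocyte markers, all detected, summed to 716 CPM in chow and 269 CPM in MASH in these cells, and carry-over would come to 10.1 of 18.8 CPM of Pmvk, 10.4 of 31.3 CPM of Idi1 and 17.5 of 42.6 CPM of Fdps in chow, against 0.899, 1.15 and 2.21 CPM in MASH. Taking it off left ratios of 0.789 for Pmvk and 0.707 for Fdps, both short of 2-fold, and 0.377 for Idi1. Lipa stood at 1.85 with macrophage RNA taken off and at 1.37 (0.742 to 2.68) with the stricter cell filter. Stellate- or fibroblast-like cells had 1 enzyme called higher, Fdft1, from 2 and 78 UMIs, where 4.89% of all tested genes were, and 0 called lower, where 5.91% were.

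Cholangiocyte-like cells went the other way at 24 weeks, when the chow and MASH cells of the class lay mostly in different clusters. Their summed synthesis was 833.5, 607, 425 and 698 CPM, a 12-week ratio of 0.728 (0.657 to 0.808) and a 24-week ratio of 1.64 (1.51 to 1.78). Sqle was at 47.8, 38.6, 9.89 and 51.6 CPM, so the 24-week chow library was the low one, and its 24-week ratio was 5.22 (3.17 to 9.23). Of 17 enzymes 5 were called higher (Acat2, Mvk, Sqle, Msmo1 and Hsd17b7), where 18.2% of all tested genes were, and all 17 had a ratio above 1. Their median log2 ratio was 0.75 against 0.34 over all tested genes. Abcg1 was at 13.7, 8.81, 24.1 and 6.10 CPM, with 0.253 (0.161 to 0.399) at 24 weeks, called lower with Mylip, where 6.92% of all tested genes were. Without doublet removal Abcg1 stood at 0.484 and Sqle at 3.02. Nr1h3 was called higher, at 2.14 (1.03 to 5.12) from 8 and 78 UMIs, or 4.95 and 10.6 CPM. At 12 weeks 0 of 16 enzymes were called higher or lower, where 6.36% and 4.73% of all tested genes were. The class held 65, 185, 73 and 562 cells. Of the 73 cells of 24-week chow, 60 belonged to cluster 30, which held 0 cells of 24-week MASH. The MASH cells all belonged to cluster 19, so diet and cluster cannot be told apart there. Makeup also differed at 12 weeks, when cluster 30 held 26 of 65 chow cells and 14 of 185 MASH cells. Its part in the 12-week ratio was not tested. Both clusters detected all 8 class markers, but their top genes were unlike. Those of cluster 30 included Dmbt1, Spink4, Tff3 and Tff2 and none of the markers, and those of cluster 19 included Spp1, Clu, Epcam and Sox9. Hepatocyte markers in the class summed to 5305, 5801, 3396 and 5690 CPM.

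Srebf2 had a ratio below 1 at both weeks in hepatocyte-like (0.729 and 0.975), endothelial-like (0.635 and 0.679), monocyte-like (0.736 and 0.772) and plasmacytoid dendritic-like cells (0.827 and 0.794), none called. Scap was called in none of these classes either. In the summed uptake, transport and storage genes the largest ratios at 12 weeks were those of stellate- or fibroblast-like cells, 1.43 (1.26 to 1.62), and macrophage-like cells, 1.28 (1.16 to 1.42). In stellate- or fibroblast-like cells Npc2 alone gave 496 of 705 CPM in chow and 808 of 1008 CPM in MASH. With the stricter cell filter this class split into a cluster with Nkain4 and Upk3b among its top genes and another with Dpt and Pi16. At 12 weeks the first held 32 chow and 228 MASH cells and the second 46 and 51. The part of this makeup in the ratio was not tested. Neutrophil-like cells had 1.40 (1.27 to 1.54) at 24 weeks. Lipa was called higher at 12 weeks in hepatocyte-, macrophage-, neutrophil- and erythroid-like cells.

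No member was called in opposite directions at the 2 weeks. Between weeks on the same diet, summed synthesis in chow hepatocyte-like cells was 0.740 times (0.706 to 0.776) as high at 24 as at 12 weeks, whereas in MASH it was 1.08 times (0.982 to 1.19). In macrophage-like cells of MASH, synthesis was 1.42 times (1.32 to 1.52) and efflux 0.859 times (0.819 to 0.901) as high at 24 as at 12 weeks. Dissociation-stress genes also differed between weeks, from 7400 to 18649 CPM in MASH monocyte-like cells and from 5439 to 8910 CPM in MASH macrophage-like cells, and their part in the differences between weeks was not tested.

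Other genes of the pathway gave a mixed picture. Of 9 LXR-responsive genes, 2 of 6 tested were called higher in hepatocyte-like cells at 12 weeks and 4 of 7 at 24 weeks, where 4.91% and 7.56% of all tested genes were. In endothelial-like cells 0 of 9 were called higher at both weeks, where 2.02% and 2.21% were, and 1 of 9 (Apoc1) lower at 24 weeks, where 2.85% were. In macrophage-like cells 2 of 9 were called higher at 12 weeks, where 3.75% were, and in monocyte-like cells 1 of 8 and 1 of 9, where 2.16% and 3.02% were. Apoe, an apolipoprotein that accepts exported cholesterol, was at 744, 3746, 627 and 1265 CPM in hepatocyte-like cells, with ratios of 5.03 (4.71 to 5.39) and 2.02 (1.89 to 2.15). Scarb1, the HDL receptor, had 13.2 (6.14 to 32.4) and 3.24 (1.69 to 6.40) there, from 8, 44, 16 and 28 UMIs. Lrp1, a receptor for lipoprotein remnants, had 8.93 (4.51 to 19.3) and 2.38 (1.12 to 5.17), and Cyp27a1, which makes oxysterol, 2.34 (1.51 to 3.63) and 2.06 (1.35 to 3.15).

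In endothelial-like cells Cd36, a fatty acid and lipoprotein scavenger receptor, was at 182, 770.3, 169 and 572 CPM, with ratios of 4.22 (3.88 to 4.60) and 3.38 (2.94 to 3.89). Cd36 was called higher at both weeks, where 2.02% and 2.21% of all tested genes were. Ch25h, which makes an oxysterol, was called lower in macrophage-like cells at 12 weeks, at 0.0271 (0.00855 to 0.0752) from 14 and 6 UMIs, and in endothelial-like cells at 24 weeks, at 0.158 (0.0880 to 0.266). It was chosen for mention after its values were seen. Of the 6 genes of SREBP processing, 2 to 6 were tested in each comparison of these 4 classes and 0 were called.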

How the data were processed

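The deposited values were raw UMI counts per gene and cell, which the authors made with Cell Ranger per the file headers (5.0.1 for 3 libraries and version 4 for 12-week MASH). Builds listed in the submitters' processing notes were mm10 and GRCh38, with no role stated, and no source used here states whether counting used strand. Cells with at least 500 gene UMIs, at least 300 genes and at most 15% mitochondrial UMIs were used, which left 18436, 17225, 27291 and 19953 cells in the order chow and MASH at 12 weeks, chow and MASH at 24 weeks. Doublets called by Scrublet in scanpy 1.11.5, run library by library (10.8%, 12.1%, 20.7% and 10.6%), were removed. Cells with several hashtags made up 20.3%, 27.1%, 23.3% and 25.0% of the filtered cells. Of these, 25.1%, 25.3%, 50.6% and 30.5% were among the doublets removed, and the rest were kept. The kept cells held 43835365, 65354645, 60690999 and 87200676 UMIs.

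Clusters came from Leiden (leidenalg 0.10.2, resolution 1, 2000 variable genes, 30 components, 15 neighbours) without the members and pathway lists among the variable genes. They were named from marker sets. Clusters with markers of more than 1 class (13.3%, 7.92%, 7.12% and 2.81% of cells) and unnamed clusters (at most 1.18%) were left out. Counts were summed per class and library. Ratios carry an exact conditional binomial interval (scipy 1.17.1) and levels an exact Poisson interval. UMIs of 1 library are not replicates, and the number of animals per library is not given in the labels. The script was tested on simulated data.

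The members and lists were chosen with earlier results of these data known. Named genes were, in each class, members called the same way at both weeks, the 3 members of each role with most UMIs, and, in hepatocyte-, endothelial-, monocyte- and macrophage-like cells, genes of other lists called the same way at both weeks. Members called at 1 week are named in addition, after their values were seen. Cells shared 487 barcodes between 24-week MASH and 12-week chow, 732 between 24-week MASH and 24-week chow, and 730 between the chow libraries, against 498.9, 738.6 and 682.4 expected at random. The 12-week MASH columns had no matched barcodes.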

Additional observations from a re-analysis of the deposited data

Results flagged for a closer look

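Cholangiocyte-like cells had intervals on opposite sides of 1 at the 2 weeks. The summed synthesis enzymes had a ratio of MASH to chow of 0.728 at 12 weeks and 1.64 at 24 weeks. Msmo1, a sterol demethylase of the pathway, had 0.563 at 12 weeks and 2.14 at 24 weeks. The difference between the weeks was not tested, since each week holds 1 library per diet. The class held 65 and 73 chow cells, and at 24 weeks 60 of the chow cells belonged to a cluster with 0 MASH cells. At 12 weeks that cluster held 26 of the 65 chow cells and 14 of the 185 MASH cells.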

How the results depend on the processing

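No paired analysis was possible because each group held 1 library, and no library could be left out. Macrophage-, stellate- and erythroid-like cells had no 24-week ratio. The cause of each shift was not tested. Ratios of Abcg5, Abcg8 and neutrophil Nr1h3 could not be given where a hashtag subset of chow held 0 UMIs. Ratios within single clusters and with carried-over RNA taken off were chosen after the data were seen. In hepatocyte-like cells the 3 genes higher at 12 weeks became 1 with the stricter cell filter and 5 with at least 10 UMIs. The 2 lower at 24 weeks became 4 with TMM scaling and 1 without doublet removal, with single-hashtag cells, and against chow hashtags 1 to 4 or 5 to 8. The 5 higher at 24 weeks became 3 with single-hashtag cells and 2 against hashtags 1 to 4 or with at least 50 UMIs. Their 24-week synthesis ratio was 0.570 with TMM scaling, 0.798 with single-hashtag cells and 0.731 against hashtags 5 to 8, and their efflux ratio 1.26 with TMM scaling. In endothelial-like cells the 5 genes lower at 12 weeks became 2 without doublet removal, with TMM scaling and at resolution 2, and the 2 higher became 1 with the stricter filter or at least 50 UMIs. The 3 lower at 24 weeks became 1 with the stricter filter or hashtags 1 to 4, and 0 with hashtags 5 to 8 or at least 50 UMIs. Their efflux ratio was 1.54 without doublet removal and 1.62 within cluster 22 at 12 weeks, and at 24 weeks 1.04 against hashtags 5 to 8, 0.983 within cluster 11 and 1.62 within cluster 22. The 2 genes lower in macrophage-like cells became 1 without doublet removal and 0 with single-hashtag cells. In monocyte-like cells at 24 weeks the synthesis ratio was 0.875 against hashtags 1 to 4. The 2 lower genes became 1 without doublet removal, against hashtags 5 to 8 and with at least 50 UMIs, and 0 with single-hashtag cells or against hashtags 1 to 4. The 1 higher became 2 without doublet removal, with the stricter filter and against hashtags 1 to 4. Reversed values were endothelial-like efflux at 24 weeks (0.983 within cluster 11) and cholangiocyte-like synthesis at 12 weeks (1.07 with hepatocyte RNA taken off). Also reversed were Stard4 in plasmacytoid dendritic-like cells at 24 weeks (1.07 against hashtags 1 to 4) and T cell-like synthesis at 24 weeks within cluster 20 (1.01).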
